A study of Mus musculus with 26 samples.

Results

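The 8 chemokine ligand genes Ccl1, Ccl3, Ccl4, Ccl5, Ccl17, Ccl22, Cxcl2 and Xcl1 were examined in bulk RNA-seq of lung group 2 innate lymphoid cells (ILC2s). They were chosen by gene symbol, as ligands that ILC2s can release, and are 8 of the 55401 genes counted. The rule itself uses no measured value. Naïve C57BL/6J ILC2s (n = 3 mice, WT C57BL6J) and naïve CC030 ILC2s (n = 3 mice, WT CC030GeniUnc) were lysed directly after sorting, with no treatment. ILC2s of 5 further CC030 mice were cultured in IL-33, TSLP and human IL-2 (10 ng/mL, 10 ng/mL and 100 U/mL) with either DMSO vehicle or 10 µM AR420626, an agonist of the short-chain fatty acid receptor FFAR3, and collected on day 2 or day 6, so that each mouse gave 4 libraries. All mice were female and between 8 and 16 weeks old, and all cells were unmodified primary cells. The reference genome was built from C57BL/6J, whereas CC030, from the Collaborative Cross, mixes the genomes of several founder strains. The naïve cells were sorted as lineage-negative cells positive for CD90, CD127, CD25 and ICOS, whereas cells for culture were sorted on ST2 in place of CD25 and ICOS.

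Chemokines are small secreted proteins that guide leukocytes by binding G protein-coupled receptors. They are classed by the first cysteines of the mature protein, which are adjacent in CC ligands, separated by 1 residue in CXC ligands and reduced to a single cysteine in the C ligand XCL1. In the lung, ILC2s respond to epithelial alarmins, and the ligands they release can draw in eosinophils, T cells and dendritic cells during type 2 inflammation. CCL1 binds CCR8, a receptor of type 2 lymphocytes and regulatory T cells. CXCL2 attracts neutrophils through CXCR2. CCL3 and CCL5 share CCR1, and CCL5 also binds CCR3, the main chemokine receptor of eosinophils. CCL17 and CCL22 both bind CCR4, and XCL1 binds XCR1 on cross-presenting dendritic cells.

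The coding stretches of 36 bases around the first cysteines show how these genes divide into classes, and are given for 7 of the 8. They are read 5′ to 3′ on the coding strand from GENCODE vM21 transcripts on GRCm38, the mm10 assembly, with the cysteine codons in capitals. In these 7 genes the stretch lies within exon 2 of the longest protein-coding transcript.
Ccl1 (chr11:82178093-82178128, minus strand): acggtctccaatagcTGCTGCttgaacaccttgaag
Cxcl2 (chr5:90904127-90904162, plus strand): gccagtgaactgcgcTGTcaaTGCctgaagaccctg
Ccl5 (chr11:83529227-83529262, minus strand): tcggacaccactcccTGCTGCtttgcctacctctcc
Ccl4 (chr11:83663467-83663502, plus strand): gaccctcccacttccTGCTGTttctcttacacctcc
Ccl17 (chr8:94811197-94811232, plus strand): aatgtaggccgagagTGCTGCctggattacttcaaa
Ccl22 (chr8:94746919-94746954, plus strand): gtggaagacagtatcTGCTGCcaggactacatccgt
Xcl1 (chr1:164932957-164932992, minus strand): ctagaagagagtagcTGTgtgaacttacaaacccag
The 5 CC genes shown carried adjacent cysteine codons, Cxcl2 carried 1 codon between its pair, and Xcl1 had a lone cysteine codon in this stretch. Ccl1, Ccl3, Ccl4 and Ccl5 lie near one another on chromosome 11, and Ccl17 and Ccl22 lie near one another on chromosome 8. Ccl1 spans chr11:82176657-82305690 because 1 of its 3 annotated transcripts, a noncoding one, reaches far upstream. This raised its merged exon length to 2369 bases against 611 bases for the longest protein-coding transcript. Xcl1 (chr1:164931644-164935527) is overlapped by the antisense gene Gm20743, and since no source used here says whether the counting used strand, reads of the pair cannot be told apart.

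RefSeq promoters of GRCm38.p6, from 250 bases before to 50 after the gene start, were matched for 6 of the 8 genes, all but Ccl4 and Ccl5. Those of Ccl1 and Cxcl2 are shown because these genes held most of the chemokine counts in C57BL/6J. The NF-κB consensus, searched on both strands, is in capitals.
Ccl1 (chr11:82179763-82180062, minus strand): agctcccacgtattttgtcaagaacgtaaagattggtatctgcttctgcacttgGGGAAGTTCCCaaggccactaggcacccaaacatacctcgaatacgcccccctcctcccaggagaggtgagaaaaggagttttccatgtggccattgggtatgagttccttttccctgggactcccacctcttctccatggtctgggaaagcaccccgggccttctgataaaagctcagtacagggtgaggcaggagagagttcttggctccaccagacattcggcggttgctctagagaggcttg
Cxcl2 (chr5:90903649-90903948, plus strand): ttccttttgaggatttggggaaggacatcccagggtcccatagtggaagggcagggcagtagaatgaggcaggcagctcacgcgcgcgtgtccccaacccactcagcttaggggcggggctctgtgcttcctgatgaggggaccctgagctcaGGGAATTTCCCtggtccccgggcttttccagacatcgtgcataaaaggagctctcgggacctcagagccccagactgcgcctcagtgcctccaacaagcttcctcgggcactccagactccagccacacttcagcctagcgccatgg
In each of these promoters an unbroken run of 11 bases matched the consensus on both strands. The run began 196 bases before the gene start in Ccl1 and 97 bases before it in Cxcl2. The consensus matched in 2 of the 6 chemokine promoters, Ccl1 and Cxcl2, and in 8.46% of all 32851 promoters. The AP-1 motif TGANTCA matched none of the 6 and 7.81% of all promoters. The TATA box letters TATAAA matched none of the 6 and 13.6% of all, and the GATA motif AGATAA matched Ccl17 alone and 11.2% of all. A match is a description of letters in this window and not a measured binding site.

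Total counts in genes were 13533363 to 15234305 in the C57BL/6J libraries, 1324595 to 1524751 in the naïve CC030 libraries and 227445 to 5320028 in the 20 cultured libraries. At these depths 3 counts, the limit that a count of 0 allows, correspond to 0.262 to 0.365, 1.32 to 1.51 and 1.13 to 6.88 CPM, the counts of a gene scaled to library size. These limits cover counting error only. Levels are CPM scaled by the trimmed mean of M values (TMM), and each naïve library came from a separate mouse. C57BL/6J replicate 3 stood apart. Sftpc, a surfactant gene of alveolar epithelium, had 1, 4 and 172153 counts in replicates 1, 2 and 3. The 12 ILC2 markers summed to 15160, 17046 and 10982 CPM in the same order, with Ptgdr2 at 0 in replicates 1 and 2. In the naïve CC030 libraries, which the labels also give as ILC2s, the same 12 markers summed to 198 to 210 CPM, and 43527 to 46111 genes had a count against 15946 to 16553 in C57BL/6J. In bulk samples, fewer cells of a type and less RNA per cell cannot be told apart. Counts under a symbol in CC030 also carry a limit of gene position, described below. Per kb of merged exons, levels of protein-coding genes in naïve CC030 correlated with C57BL/6J at r = −0.002 to 0.228 on chromosomes 1 to 19 and X. C57BL/6J replicate 1 against the other replicates gave 0.911 to 0.949.

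Naïve C57BL/6J ILC2s held abundant Ccl1 transcripts, with Cxcl2 and Ccl5 at lower levels and the other 5 ligands at or near 0. The 8 genes together took 10205, 13957 and 5624 counts in replicates 1, 2 and 3, which is 0.0754%, 0.0968% and 0.0369% of all counts in genes. Ccl1 made up 86.7% and 87.4% of these chemokine counts in replicates 1 and 2 but 42.5% in replicate 3, where Cxcl2 made up 53.0%. Above 5 CPM in every C57BL/6J library were 3 of the 8 genes.

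**Figure D1:**
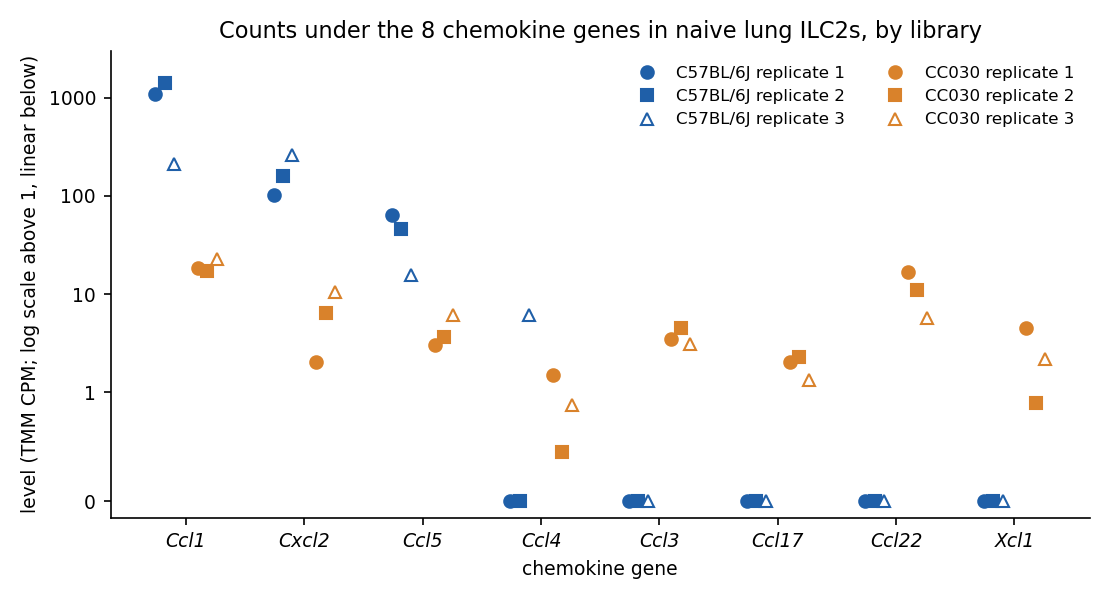
Level of each of the 8 chemokine genes (TMM CPM, log scale above 1 and linear below) in each naïve library, with C57BL/6J in blue, CC030 in orange and replicate 3 of each strain as open triangles. Ccl1, Cxcl2 and Ccl5 lay above all CC030 libraries in each C57BL/6J library, whereas Ccl3, Ccl17, Ccl22 and Xcl1 were at 0 in all C57BL/6J libraries.

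Ccl1 had 8846, 12197 and 2393 counts in C57BL/6J replicates 1, 2 and 3. Replicates 1 and 2 were alike, and replicate 3 was lowest. Its level was 899 ± 621 CPM (SD, n = 3), or 1244 CPM as the mean of replicates 1 and 2, and 552 CPM without TMM scaling. In replicate 2 it ranked 145th among 21897 protein-coding genes, in replicate 1 it ranked 210th and in replicate 3 it ranked 1205th. The highest library was 6.76-fold above the lowest, and 6.41% of the 6551 protein-coding genes above 5 CPM in every C57BL/6J library had a range at least as wide (median 2.38-fold).

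Cxcl2 had 829, 1362 and 2981 counts in the same libraries, a mean of 173 ± 80.7 CPM (SD, n = 3). It ran the other way from Ccl1, with replicate 3 highest. Without replicate 3 its mean was 129 CPM. Its range of 2.58-fold was near the median of other genes at this level, since 44.2% of them ranged at least as widely.

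Ccl5 had 530, 398 and 180 counts, or 42.1 ± 24.6 CPM (SD, n = 3) and 55.3 CPM without replicate 3. Like Ccl1, it was lowest in replicate 3. Of its neighbours on chromosome 11, Ccl4 had 0, 0 and 70 counts, so that its 6.11 CPM were found in replicate 3 alone. Ccl3, a close relative of Ccl4, had 0 counts in all 3 libraries. Ccl17, Ccl22 and Xcl1 were also at 0 in all 3, which allows levels of up to 0.262 to 0.365 CPM per library. For comparison, 35.5% of protein-coding genes were at 0 in all 3 libraries.

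Levels were put in order per length, as TMM CPM per kb of merged exons. Ccl1 came first at 379 ± 262 CPM per kb (SD, n = 3), followed by Cxcl2 at 83.6 ± 39.0, Ccl5 at 43.8 ± 25.6 and Ccl4 at 3.08 ± 5.34. Ccl1 and Cxcl2 were not separated, because Ccl1 in replicate 3 (88.1) lay below Cxcl2 in the same library (126). Cxcl2 and Ccl5 were not separated either, while Ccl5 and Ccl4 were. The order of Cxcl2 and Ccl5 turned round without replicate 3 per kb of the longest protein-coding transcript, where Ccl5 (86.6 to 121 CPM per kb) lay above Cxcl2 (54.2 to 84.8). Per kb of the longest protein-coding transcript, a length chosen after the data were seen, the levels of Ccl1 were 1761, 2310 and 342 CPM per kb in replicates 1, 2 and 3, and none of them overlapped with Cxcl2 (54.2 to 139.9). The place of Ccl1 above Cxcl2 in every library therefore rests on which of its annotated exons are counted in its length, except in replicates 1 and 2, where it held with both lengths.

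**Figure D2:**
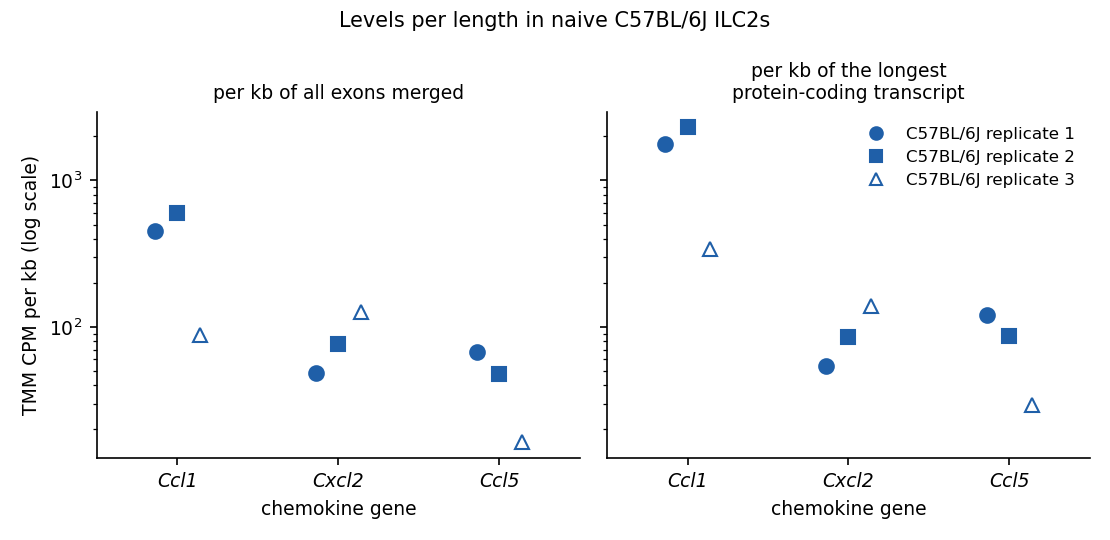
Levels of Ccl1, Cxcl2 and Ccl5 in the 3 naïve C57BL/6J libraries (TMM CPM per kb, log scale), divided by the length of all merged exons (left) or of the longest protein-coding transcript (right). In replicate 3 (open triangles) Ccl1 lay below Cxcl2 per kb of merged exons, at 88.1 against 126, and above it per kb of the coding transcript, at 342 against 139.9.

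Replicate 3 also differed in markers of other cells and in genes of cell activation. The 7 epithelial, endothelial and stromal markers summed to 98.6, 67.5 and 15135 CPM in replicates 1, 2 and 3, with 5, 4 and 5 of the 7 above 0. Sftpc alone held 0.122, 0.463 and 15020 CPM of these sums. Pecam1 and Cdh5 were also highest in replicate 3 (30.3 and 4.97 CPM there). Epcam (72.6, 47.7 and 69.1 CPM) and Scgb1a1 (19.6, 0.810 and 10.0) were highest in replicate 1, and Col1a1 and Col1a2 had at most 1 count. The 9 dendritic cell markers summed to 107, 44.1 and 1393 CPM. In that list Flt3, Clec9a and Cd209a were at 0 in every library, the MHC class II genes H2-Aa and H2-Ab1 were found in replicate 3 alone, Zbtb46 had 1, 0 and 108 counts, and Xcr1 had 160, 154 and 113. The 9 macrophage and monocyte markers summed to 1827, 2125 and 2884 CPM, of which Ccr2 held 1826, 2100 and 1570. In that list Lyz2, a lysozyme gene, had 1, 167 and 14729 counts, and Cd68 (0, 0 and 268) and Csf1r (0, 16 and 52) were also highest in replicate 3. Adgre1, Marco, Mrc1 and Fcgr1 had at most 2 counts in a library, and Ly6c2 had 2, 37 and 7. The 14 immediate early genes, which respond within minutes to stimulation, summed to 2823, 2320 and 12294 CPM, and the 9 NF-κB feedback genes to 3379, 3415 and 4524. Junb held 636, 591 and 5852 CPM of the former sums, and Nfkbia held 1541, 1888 and 2834 of the latter. Members of both lists went the other way. Fosb (223, 107 and 81.4 CPM), Egr3, Nfkbiz (569, 410 and 380), Tnfaip3 (637, 474 and 444) and Nfkb1 (238, 343 and 218) were lowest in replicate 3. Ier3 was highest in replicate 1, and the remaining members of both lists were highest in replicate 3. Cxcl2 and Ccl4 were thus highest, and Ccl1 and Ccl5 lowest, in the library with the highest sums of these lists, and the part of the other cells in these values was not tested. The 8 NK cell and ILC1 markers were at 0 in all 3 libraries, as was Xcl1, a ligand that NK cells make in abundance. The 6 neutrophil markers had 1, 0 and 0 counts in all. The 8 T cell markers summed to 2704, 3175 and 1661 CPM, with 7, 7 and 6 of them above 0. Most of these sums came from Cd3g (886, 1225 and 427 CPM), Trbc1 (668, 762 and 517) and Trbc2 (865, 1147 and 713), each highest in replicate 2. Cd3d (1270, 57 and 23 counts) and Trac (786, 210 and 1 counts) were highest in replicate 1, and Cd8a was at 0 throughout. The mast cell and basophil list summed to 1019, 1360 and 431 CPM, with Cpa3 (5107, 9407 and 3031 counts), Kit and Fcer1a present in every library and Mcpt8 and Ms4a2 at 0, and the B cell list summed to 16.4, 49.2 and 112 CPM. The eosinophil list had 3, 0 and 3 counts, all under Ccr3.

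**Figure D3:**
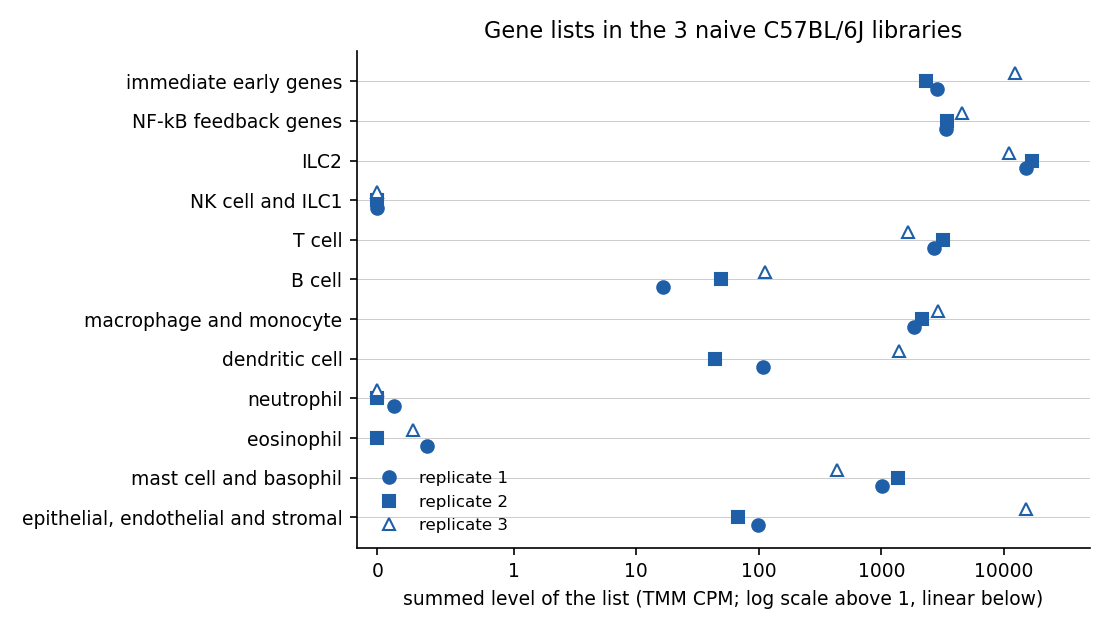
Summed level of each gene list (TMM CPM, log scale above 1 and linear below) in the 3 naïve C57BL/6J libraries, with replicate 3 as open triangles. The epithelial, endothelial and stromal list was at 15135 CPM in replicate 3, of which Sftpc held 15020, and below 100 CPM in the others. NK cell and ILC1 markers were at 0 in all 3.

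Other chemokine ligands in C57BL/6J ILC2s were sparse or uneven. Of 29 such genes, 4 were above 5 CPM in every library. Ppbp, a platelet CXC chemokine, was at 96.6 ± 69.3 CPM (SD, n = 3), and Pf4, platelet factor 4, was at 25.6 ± 11.1. Ccl25, a ligand of CCR9, was at 20.03 ± 12.2 CPM, and Ccl27a, a ligand of CCR10, was at 7.57 ± 2.56. Their means lay below that of Cxcl2, although Ppbp in replicate 1 (177 CPM) lay above Cxcl2 in the same library (101 CPM). Between 9 and 12 of the 29 had a count in a library. Ligand counts outside these 4 often sat in single libraries, and examples named here were chosen after their values were seen. The neutrophil ligand Cxcl1 had 0, 255 and 0 counts, the related Cxcl3 had 350, 1 and 0, and Cxcl15, a lung epithelial chemokine, had 0, 0 and 1400.

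Receptors for the 8 ligands were led by Ccr8, the receptor of CCL1. Ccr8 had 11675, 10918 and 34665 counts, a level of 1903 ± 975 CPM (SD, n = 3), so that ligand and receptor were both abundant in the same libraries. Replicate 3 was highest for Ccr8 and lowest for Ccl1. Ccr4, the receptor of CCL17 and CCL22, had 54, 124 and 302 counts although both of its ligands were at 0. Xcr1 had 160, 154 and 113 counts. Ccr1 and Ccr3 had at most 3 counts in a library, and Cxcr2, the receptor of CXCL2, was at 0 in all 3.

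Counts under the same symbols in naïve CC030 libraries were low for all 8 genes. The comparison of CC030 with C57BL/6J addresses how naïve ILC2s of the strains differ. By the study's methods, reads of the CC030 libraries were placed on a pseudogenome built on mm9 and then converted to mm10 coordinates, while C57BL/6J reads were placed on mm10. Values in CC030 are therefore given as counts under a symbol, together with a check of gene positions. Ccl1 had 37, 38 and 52 counts in CC030 replicates 1, 2 and 3, or 19.6 ± 2.96 CPM (SD, n = 3). Every CC030 library lay below every C57BL/6J library. The mean was 45.9-fold higher in C57BL/6J (log2 fold change, CC030 over C57BL/6J, −5.52, standard error 0.77, edgeR adjusted p = 0.00046).

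Cxcl2 had 4, 14 and 24 counts in CC030, and its mean was 27.4-fold higher in C57BL/6J (log2 fold change −4.76, edgeR adjusted p = 0.000526). Ccl5 had 6, 8 and 14 counts, and its mean was 9.85-fold higher in C57BL/6J (log2 fold change −3.29, edgeR adjusted p = 0.00435). The groups did not overlap for either gene. Without C57BL/6J replicate 3 the log2 fold changes were −6.40 for Ccl1, −4.76 for Cxcl2 and −4.07 for Ccl5, and all 3 calls held. Of the 35551 genes tested, 12.2% were called higher in C57BL/6J. Among the 12 ILC2 markers, 11 were called higher in C57BL/6J and 1, Ptgdr2, higher in CC030, with a median log2 fold change of −5.68. Of the 14 immediate early genes, 8 were called higher in C57BL/6J and 0 higher in CC030. Calls toward C57BL/6J were therefore not particular to the chemokines.

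Ccl22 had 33, 24 and 13 counts in CC030 and 0 in every C57BL/6J library. Against a floor of 3 counts per C57BL/6J library, its mean was at least 34.1-fold higher in CC030 (edgeR adjusted p = 0.000484). Ccl3 had 7, 10 and 7 counts, at least 11.4-fold higher, and Xcl1 had 9, 2 and 5 counts, at least 7.85-fold higher, and both passed edgeR's test (adjusted p = 0.000484 and 0.0018). These 3 genes were tested only because they had counts in CC030, so a difference was built into their selection by the filter. Of all genes tested, 64.1% were called higher in CC030, and log2 fold changes over all genes had a median of 7.03 with TMM and 7.56 with DESeq2's size factors. Calls toward CC030 for 3 of the 8 chemokines are thus not set apart from the background of this comparison. Ccl17 had 4, 5 and 3 counts in CC030, at least 5.75-fold above the C57BL/6J floor, and Ccl4 had 3, 1 and 2. Neither passed the filter on low counts. With each replicate left out, Ccl22 remained called, Xcl1 passed the filter in none of the 6 fits, and Ccl3 passed it only without CC030 replicate 1 or replicate 3, where it was called.

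Levels of the chemokine genes in naïve CC030 lay among those of the genes around them, with Ccl4 near the bottom. In naïve C57BL/6J, Ccl1 had 9893 counts per exonic kb summed over 3 libraries, 277 times the median of 122 protein-coding genes within 4 Mb. In naïve CC030, it had 53.6 per exonic kb, 1.57 times the median of the same genes (34.1), with 84.4% of them below it. The other 7 members stood at 0.276 to 1.34 times the median of their windows in naïve CC030, with Ccl4 lowest and Xcl1 highest. Of the 105 genes in the window of Ccl4, 1.90% lay below it. Ccl22, at 30.1 per exonic kb, stood at 0.835 times its window median of 36.1, although it was among the members called higher in CC030. Cxcl2 stood at 0.841 times and Ccl5 at 0.887 times.

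Gene positions were checked by correlating levels of the genes within 4 Mb of each member with C57BL/6J levels moved along the chromosome in steps of 1 kb, up to 3 Mb either way. A positive shift moved C57BL/6J levels toward lower coordinates, and a negative one toward higher. A shift within 5 kb counted as none. The correlations describe genes of a window, which are not independent, and the windows of the 4 members on chromosome 11 share most of their genes. When a C57BL/6J library was set against the others, r at no shift was 0.839 to 0.931 and the best shift was none in all 24 cases. In naïve CC030, r at no shift was 0.293 to 0.477 around the 8 members, and no shift raised it above 0.528. In CC030 cultured with vehicle for 6 days, the window of Ccl5 had r = 0.491 at no shift and 0.743 at +186 kb, and +186 kb was also the best shift around Ccl1, Ccl3 and Ccl4 in all 4 cultured groups. Around Ccl17 and Ccl22 the best shift in vehicle at day 6 was −2524 kb (r = 0.560 and 0.559, against 0.305 and 0.309 at no shift). Around Xcl1 it was −1930 kb at day 6 with either treatment (r = 0.581 with vehicle, against 0.219 at no shift). Around Cxcl2 no shift stood out, with a highest r of 0.470 against 0.348 at no shift. In naïve CC030, 5 of the 8 genes (Ccl3, Ccl4, Ccl5, Ccl17 and Ccl22) had their best shift within 5 kb, which became 1 of 8 with 2 Mb windows and 0 of 8 over genes above 20 CPM or per exonic kb. In the cultured groups 2 of 32 pairs of a gene and a group had it within 5 kb.

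**Figure D4:**
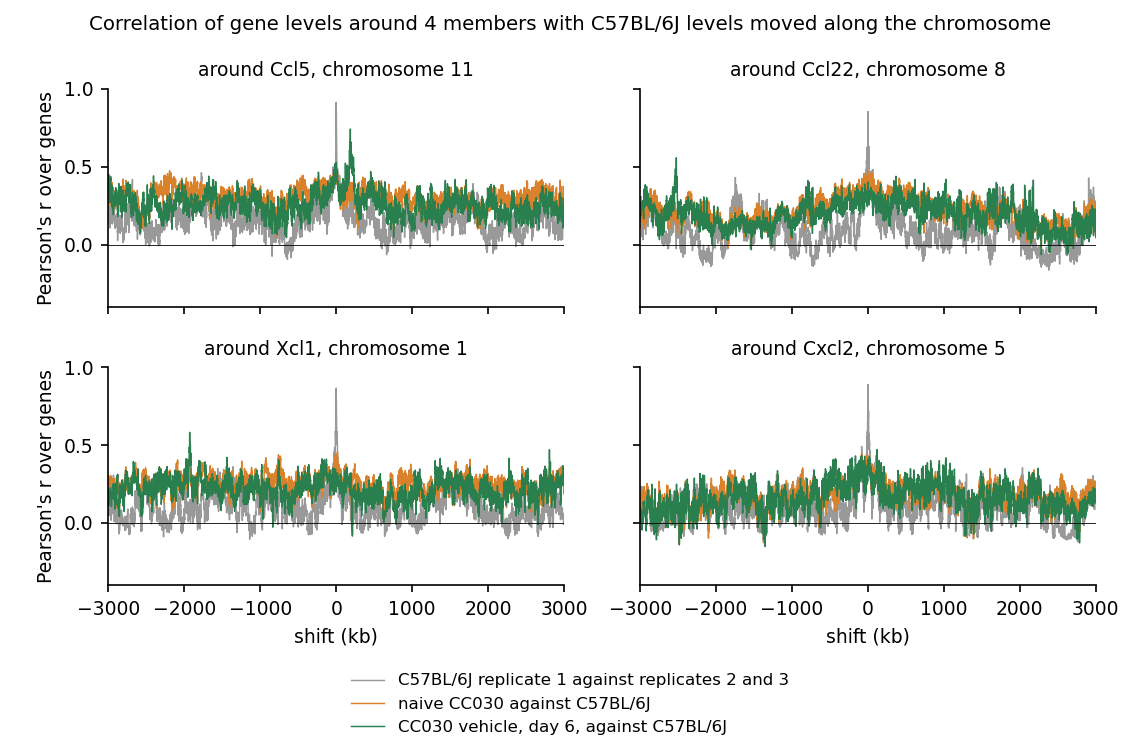
Pearson's r over genes within 4 Mb of Ccl5, Ccl22, Xcl1 or Cxcl2 between log2(CPM + 1) of the compared libraries and of C57BL/6J moved by the shift on the x axis (kb). Positive shifts move C57BL/6J levels toward lower coordinates. C57BL/6J replicate 1 against replicates 2 and 3 (grey) peaked at no shift in each panel and naïve CC030 (orange) had no sharp peak, while CC030 vehicle at day 6 (green) peaked at +186 kb around Ccl5, −2524 kb around Ccl22 and −1930 kb around Xcl1, and had no single peak around Cxcl2.

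At +186 kb, the exons of Ccl5 come to lie within 1 kb of exons of Ap2b1, an adaptor subunit of clathrin-coated vesicles. Those of Ccl3 come to lie within 1 kb of exons of Mmp28 and those of Ccl1 within 1 kb of exons of Ccl8. No exon lies within 1 kb of where the exons of Ccl4 come to lie. The same holds for Ccl17, Ccl22 and Xcl1 at their best shifts of day 6. Introns were not examined. Counts under Ap2b1 were 24 to 317 in vehicle at day 2 and 536 to 2226 in vehicle at day 6 (log2 fold change 4.54, standard error 1.09, edgeR adjusted p = 0.00839). With AR420626 at day 6 they were 171 to 467 (log2 fold change against vehicle −1.23, edgeR adjusted p = 0.0458). Whether any of these counts came from Ccl5 was not tested. Counts under Ccl8 were at most 8 in any cultured library, and counts under Mmp28 at most 77. At day 6, Mmp28 had 16 to 41 counts with AR420626 against 6 to 24 with vehicle (log2 fold change 1.58, standard error 0.46, edgeR adjusted p = 0.022). Whether any of the Mmp28 counts came from Ccl3 was not tested. The counts below are given under the chemokine symbols as deposited, with this limit.

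In cultured CC030 ILC2s, which were exposed to the alarmins IL-33 and TSLP, counts under the 8 symbols ranged from 0 to 29 per library. Ccl1 had 17, 29, 26, 9 and 2 counts in vehicle at day 2 in mice 1 to 5, and 10, 28, 14, 4 and 8 with AR420626. At day 6 it had 1, 4, 2, 0 and 5 counts with vehicle and 1, 6, 0, 3 and 2 with AR420626. Treated and vehicle libraries overlapped at both times. Its mean with vehicle was 7.52 CPM at day 2 and 2.38 CPM at day 6, lower in 4 of 5 mice, and it did not pass the filter on low counts for this comparison. Without that filter its log2 fold change was −1.76 (standard error 1.00) and did not pass (edgeR adjusted p = 0.382).

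Ccl22 had 22, 14, 17, 22 and 2 counts in vehicle at day 2 and 8, 17, 4, 0 and 0 with AR420626. It was lower with AR420626 in 4 of 5 mice, and the groups overlapped. Its log2 fold change at day 2 was −1.58 (standard error 0.81, edgeR adjusted p = 1.00), and that of Ccl1 was −0.01 (standard error 0.65). The lowest total of counts in genes, 227445, was that of mouse 4 with AR420626 at day 2. At day 6 Ccl22 had 0, 2, 7, 2 and 8 counts with vehicle and 0, 4, 2, 4 and 4 with AR420626.

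Of the 8 chemokines, 2 were tested for AR420626 against vehicle at day 2 (Ccl1 and Ccl22) and none was called. No gene was called in that comparison by edgeR (0% of 20865), with 403 at an unadjusted p under 0.05, while DESeq2 called 15. For AR420626 against vehicle at day 6 none of the 8 passed the filter on low counts, and 11.4% of 9421 genes were called. For day 6 against day 2 with vehicle none of the 8 passed it either, and 17.3% of 15819 genes were called. Whether the effect of AR420626 differed between days was tested for Ccl1 (log2 0.09, standard error 1.19) and Ccl22 (1.09, standard error 1.42), neither was called, and 0.0519% of 23141 genes were. Without the filter, all 8 were fitted in the 4 cultured comparisons and none was called. The counts do not show that AR420626 leaves these genes unchanged, since the standard errors without the filter reached 3.06 on the log2 scale.

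The remaining members were near the limit of a count of 0. Counts ranged from 0 to 7 for Ccl3, 0 to 11 for Ccl4, 0 to 10 for Ccl5 and 0 to 16 for Cxcl2. Ccl17 had 10, 11, 10, 6 and 0 counts with AR420626 at day 2 and 5, 6, 2, 2 and 5 with vehicle, higher in 4 of 5 mice (log2 fold change without the filter 0.97, standard error 1.03, edgeR adjusted p = 1). Xcl1 had 4, 8, 8, 10 and 2 counts with AR420626 at day 6 and 6, 6, 3, 0 and 1 with vehicle, also higher in 4 of 5 mice (log2 fold change without the filter 1.32, standard error 1.11, edgeR adjusted p = 1). Its 61.2 counts per exonic kb, summed over 5 libraries, were 4.87 times the median of its window. For Ccl17 at day 2 with AR420626 this ratio was 2.68, and all 69 genes of its window lay below it. In the remaining pairs of a gene and a cultured group the ratio was between 0.199 and 2.78. The highest of these was Xcl1 with vehicle at day 6, with 83.6% of its window genes below it.

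**Figure D5:**
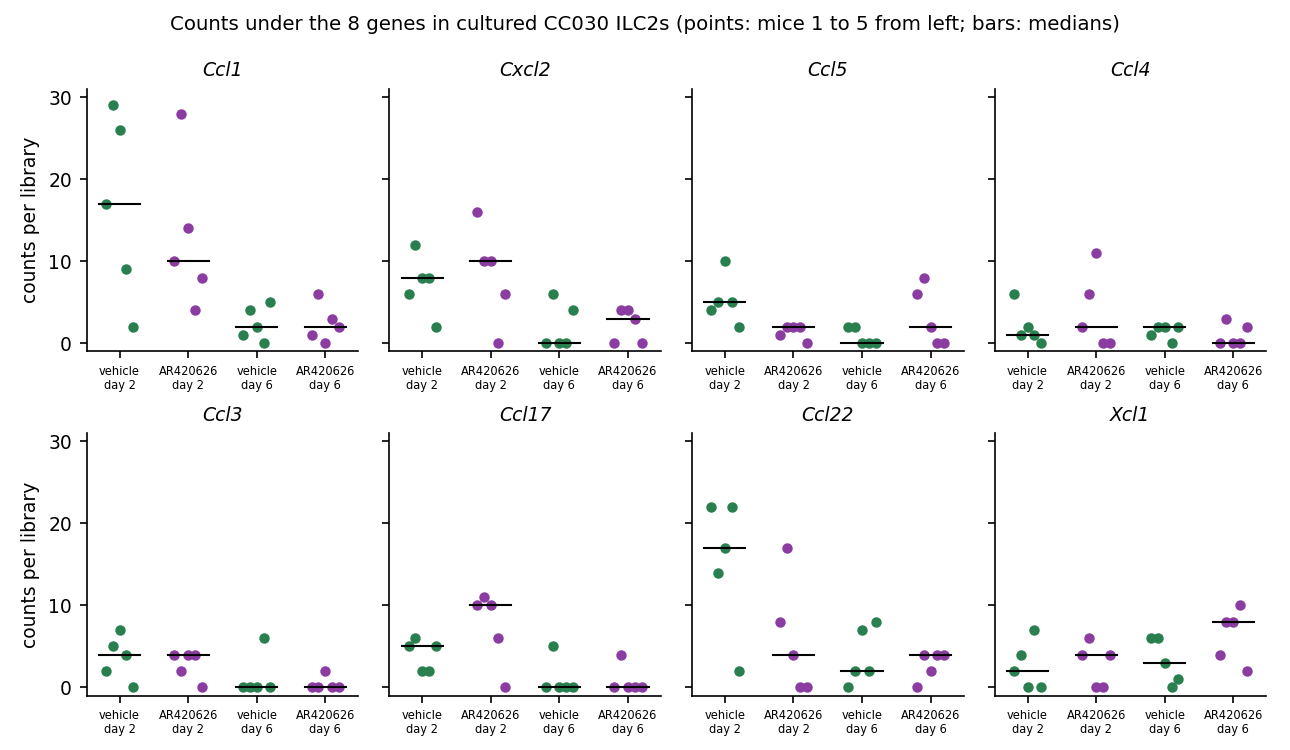
Counts per library under each of the 8 chemokine symbols in CC030 ILC2s cultured with vehicle (green) or AR420626 (purple) for 2 or 6 days, with mice 1 to 5 from left to right and bars at the medians. Ccl1 and Ccl22 reached 29 and 22 counts at day 2, and no gene was above 10 counts at day 6.

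Among genes related to the 8 ligands, calls in culture were as follows, again as counts under a symbol. The shifts of gene position were examined only around the 8 ligands, so which genes these CC030 counts came from was not tested. Of 29 other chemokine ligands, 8 were tested for day 6 against day 2 with vehicle and 2 were called, both higher at day 6, in a comparison that called 17.3% of all genes tested. Ccl25 rose from 40.7 ± 19.7 to 240 ± 166 CPM (SD, n = 5; log2 fold change 2.43, edgeR adjusted p = 0.0398), and Cxcl16, a transmembrane ligand of CXCR6, rose from 37.5 ± 51.6 to 243 ± 202 CPM (log2 fold change 3.29, edgeR adjusted p = 0.0217). None of 5 tested for AR420626 against vehicle at day 6 was called. Of the 4 receptor genes tested, Ccr1 and Ccr3 were called higher at day 6 than at day 2 with vehicle (log2 fold changes 3.12 and 4.56). Both, the only receptors tested there, were called lower with AR420626 at day 6, where 11.4% of all genes tested were called (log2 fold changes −2.57 and −4.43, edgeR adjusted p = 0.000258 and 3.39e-12). The 2 comparisons share the vehicle libraries of day 6. Counts under Ccr3, which pairs with CCL5, were 207 to 681 with vehicle and 5 to 17 with AR420626 at day 6, and the groups did not overlap. Of the 4 eosinophil markers, which include Ccr3, 2 were tested for day 6 against day 2 with vehicle, and both, Epx and Ccr3, were called higher at day 6. The part of eosinophils in the receptor values was not tested. The median log2 fold change of the receptor list with AR420626 at day 6 was −3.50 over 2 genes tested, against 0.10 over all genes tested. In the strain comparison, 12 of 23 other ligands tested were called higher in CC030 and 2, Pf4 and Ppbp, higher in C57BL/6J, against 64.1% and 12.2% of all genes tested. Their median log2 fold change was 1.86, against 7.03 over all genes. Among the receptors, Ccr8 was called higher in C57BL/6J and Ccr3 and Cxcr2 higher in CC030. Counts under Ccr8 were 5, 10 and 8 in naïve CC030 and at most 18 in culture.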

How the data were processed

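Gene counts of 26 bulk RNA-seq libraries of mouse lung ILC2s (6 naïve, 20 cultured) were analysed as deposited. The authors trimmed reads with fastp 1.0.1, checked them with FastQC 0.12.1, aligned them with STAR 2.7.11b and counted reads per gene with HTSeq 2.0.5, which gave raw counts with no normalization. C57BL/6J reads were aligned to mm10. CC030 reads were aligned to a pseudogenome built on mm9, and lapels 1.1.1 converted their positions. The strand setting and annotation of the counting are not given in the sources used here. Libraries were made with SMART-Seq v4, without molecular identifiers. The 5 HTSeq summary rows were left out of library sizes. Reads in no gene were 74.5% to 85.3% of those in the cultured libraries.

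Counts were tested with edgeR 4.0.16 (quasi-likelihood test, TMM, filterByExpr at its defaults of 10 counts and 15 in total, two-sided) in R 4.3.3, with Benjamini-Hochberg adjustment over all genes tested and a threshold of 0.05. Cultured comparisons had the mouse as a block, because cells of each mouse were kept apart and given each treatment. The correlation of deviations from the group means within a mouse was −0.369 to 0.347. Naïve libraries of equal number came from different mice (correlation −0.0106 to 0.00177), and no block was used. No replicates agreed within sampling noise. The script was tested on simulated data. Changes of 4-fold were recovered in 0% of cases between strains, 75% for AR420626 at day 6 and 20% for AR420626 at day 2. They were recovered in 22% for day 6 against day 2 and 1% for the difference between days. Changes of 64-fold were recovered in 70% to 85%. Alternatives were DESeq2 1.42.0, its size factors, other filters, the block and leaving out each replicate.

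The 8 genes and all lists were chosen with earlier results of these data known. All 8 genes are named whatever their values. Of the other ligands, those above 5 CPM in every C57BL/6J library and those called in culture are named, as are receptors of the 8 ligands. The values of 1 receptor and the coding stretch of 1 ligand are not reported here. No gene of the 8 reached the mean of 10 cultured counts set for naming genes of like pattern. Positions are those of GENCODE vM21 on GRCm38, and promoters are from RefSeq.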

Additional observations from a re-analysis of the deposited data

Results flagged for a closer look

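Of 32 sets of 5 cultured libraries, one for each chemokine gene and group, 7 held a highest library set apart from the other 4 by more than the critical value of Dixon's test (0.71). The nominal chance rate of that test, 5%, is for continuous normal values. It does not hold for counts this low, so the 7 sets cannot be set against it. All 7 sets rested on 2 to 10 counts. Ccl3 was at 9.18 CPM (4 counts) in mouse 4 with AR420626 at day 2, at 5.88 CPM (6 counts) in mouse 4 with vehicle at day 6 and at 2.71 CPM (2 counts) in mouse 3 with AR420626 at day 6. Ccl5 was at 4.47 CPM (10 counts) in mouse 3 with vehicle at day 2 and at 4.59 CPM (2 counts) in mouse 4 with AR420626 at day 2. Ccl17 was at 4.43 CPM (5 counts) in mouse 2 with vehicle at day 6 and at 2.85 CPM (4 counts) in the same mouse with AR420626 at day 6. The other 4 libraries were at 0 counts for Ccl3 and Ccl17 in all of the sets from day 6. The library of mouse 4 with AR420626 at day 2 had 227445 counts in genes, the fewest of all.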

How the results depend on the processing

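The number of chemokine genes called between the naïve strains, 6, became 1 (Ccl1) where every library had to hold at least 10 counts, since fewer genes were then tested, and was 4 to 5 with each replicate left out, when Xcl1 in all 6 fits and Ccl3 in 4 of them no longer passed the filter. It was 6 with the replicate block, under which Ccl5 had an edgeR adjusted p of 0.0367, and 7 without a filter. In the cultured comparisons 0 of the 8 genes were called with or without the replicate block, and 0 to 0 with each mouse left out. The log2 fold change of Ccl1 with AR420626 at day 2 (−0.01) turned to 0.027 with DESeq2 and to 0.032 with DESeq2's size factors, and was −0.30 to 0.25 with a mouse left out. Its difference between the days (0.09) was −0.25 to 0.78 with a mouse left out. None of these passed the test.

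Over all genes, 27122 calls between strains became 3573 with at least 10 counts in every library. With AR420626 at day 6, 1078 became 604 without mouse 1 and 361 without mice 4 and 5. At day 2, 0 became 15 with DESeq2 and 15 without a filter. For day 6 against day 2 with vehicle, 2742 became 994 to 5376 with a mouse left out and 4337 without mice 4 and 5. For the difference between days, 12 became 75 with DESeq2, 20 without a filter, 6 with at least 10 counts in every library, 2 with no replicate block, 0 to 33 with a mouse left out and 59 without mice 4 and 5. The causes were not tested. In C57BL/6J the same number of chemokine genes, 3, lay above 5 CPM under every scaling and with each replicate left out. With the longest coding transcript as length, 2 neighbours in the order were separated in place of 1.

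Pairs of a chemokine gene and a CC030 group with a best shift beyond 5 kb were 33 of 40, and 39, 40 and 40 with 2 Mb windows, with genes above 20 CPM and per exonic kb. The correlation at no shift depended on the form. In naïve CC030 it was −0.364 to −0.189 over genes above 20 CPM and −0.389 to 0.0797 per exonic kb, a form chosen after seeing the data. Over genes above 20 CPM, C57BL/6J against itself gave 0.405 to 0.765, with no shift best in 19 of 24 cases.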
